A study of Mus musculus with 4 samples.

Results

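The genes described here encode the DNA replication fork, the enzymes that make its nucleotide precursors and regulators of entry into S phase. They were taken from a list of 33 symbols, and 31 of the 33 were measured on a probe set that carries their symbol alone, out of 22180 named genes in all. Rfc4 and Ccne2 share their probe sets with Eif4a2 and Ints8 in the platform annotation, so no value is given for either. The cells were breast cancer lines from MMTV-NIC tumours, which arise in female FVB mice because the mammary-active MMTV promoter drives activated ErbB2 together with Cre as a shared transcript. Cells received 2 µM GSK126 for 96 h (n = 2 arrays) or the vehicle DMSO for 96 h (n = 2 arrays), and the comparison asks how transcription responds to this inhibitor of EZH2, the enzyme that places the repressive mark H3K27me3. All 4 samples carry the transgene and were grown with serum, EGF, insulin, hydrocortisone and pituitary extract. The labels do not say whether the replicates are separate cultures or separate lines, so p-values cover the spread among these 4 arrays and may reflect technical variation only.

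At a fork, the helicase made of Cdc45, the MCM ring and the GINS complex unwinds the template, and replication protein A coats the exposed single strands. DNA polymerase alpha with primase lays primers, the RFC clamp loader places the sliding clamp PCNA at each primer, and polymerases epsilon and delta then extend the leading and lagging strands. Flap endonuclease and ligase join the lagging-strand fragments, chromatin assembly factor CAF-1 deposits histones behind the fork, and most of these genes are transcribed around the G1/S transition under E2F control.

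Expression values are log2 intensities summarised by the authors, and a change is the GSK126 mean minus the DMSO mean with its standard error (SE). Correlations between arrays over all probe sets were 0.981 to 0.988, and GSK126 replicate 2 had the lowest. Of the 8 luminal epithelial markers, 7 were above 4.77, the 40th percentile of mean level below which a gene is called dim here, and Krt19 was not. Their level, as the log2 of the summed linear values, was 13.73 and 13.76 with GSK126, against 13.66 and 13.72 with DMSO. The immune marker sum was higher with GSK126 (9.37 and 9.32, against 8.60 and 8.49 with DMSO). Of its 6 measured genes 4 were dim, and Cd68, a lysosomal protein abundant in macrophages, passed the test (change 1.00, adjusted p = 0.010, and 0.110 to 0.233 with 1 array left out). Ptprc, the defining leukocyte marker, was dim at 3.44 and 3.58 with GSK126 and 3.67 and 3.37 with DMSO. The basal, fibroblast, endothelial and adipocyte sums lay between 6.18 and 8.03 with GSK126 and between 6.17 and 7.90 with DMSO, and their part in the results was not tested.

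All 31 measured genes had a lower mean with GSK126 than with DMSO, where 52.0% of all genes did. No gene passed the test on its own: 0 of 31 had an adjusted p under 0.05 in limma, where 0.433% of all genes passed and 0.171% passed as lower. The calls over all genes were 58 higher and 38 lower (55 higher and 62 lower with each array centred on its median). At an unadjusted p under 0.05, 16 of 31 were lower and 0 higher, against 5.93% of all genes lower and 4.64% higher. That count was 7 without GSK126 replicate 1 and 10 without DMSO replicate 1. Both GSK126 values lay below both DMSO values for 25 of the 31, against 21.8% of all genes, and above both for 0. Among genes that were not dim, a group that holds all 31, the corresponding shares were 58.8% with a lower mean, 9.15% lower at an unadjusted p under 0.05 and 28.4% below both DMSO values.

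The median change of the 31 genes was -0.27 (interquartile range -0.36 to -0.18), a 1.20-fold lower level, beside a median of -0.01 (-0.13 to 0.12) over all genes. Over the genes not dim the median change was -0.034. Averaged over the 31 genes, the level was 8.0 and 8.04 on the GSK126 arrays and 8.30 and 8.27 on the DMSO arrays, so the groups did not overlap. On each GSK126 array taken alone, 28 of the 31 genes lay below both DMSO arrays. The same held for 34.3% of all genes on GSK126 replicate 1 and 40.7% on GSK126 replicate 2. For 5 genes a second, weaker probe set exists that was not used. It had lower means with GSK126 for Rpa1 (-0.33), Dut (-0.15) and Pole (-0.09), and higher means for Fen1 (0.07) and Rrm2 (0.06), where it disagrees in sign with the stronger one. In RNA from whole cultures, fewer cells in S phase and less RNA per cell cannot be told apart.

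**Figure D1:**
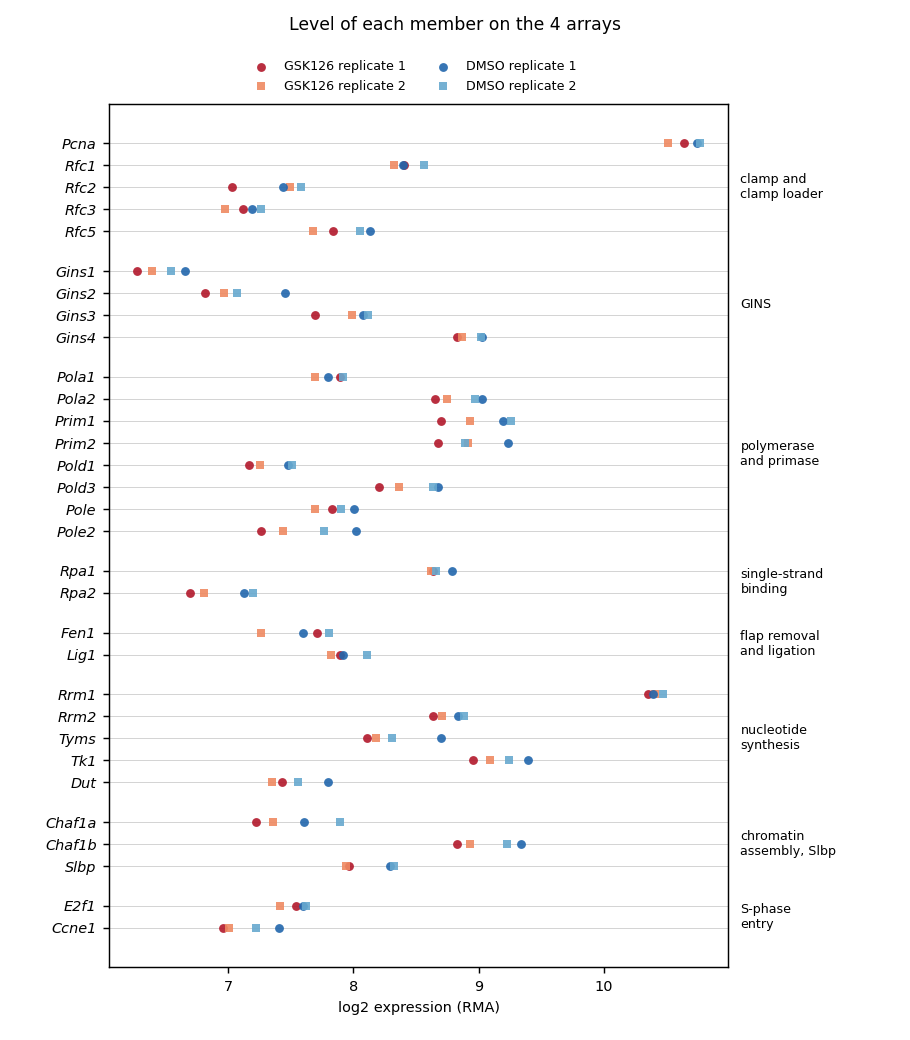
Log2 expression of the 31 measured genes on the 4 arrays, grouped by role. Red and orange points are the GSK126 arrays and blue points the DMSO arrays, and for 25 genes both GSK126 points lie left of both DMSO points.

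All 4 GINS subunit genes had both GSK126 values below both DMSO values, where 28.4% of the genes not dim did. Their median change was -0.26, and -0.18 without GSK126 replicate 1. Gins2 was at 6.82 and 6.97 with GSK126, against 7.46 and 7.07 with DMSO, a change of -0.37 (SE 0.14, unadjusted p = 0.0338 and adjusted p = 0.429 in limma). Its difference rested partly on DMSO replicate 1, since the change without that array was -0.18. Gins1 was at 6.28 and 6.39 with GSK126 and at 6.66 and 6.54 with DMSO (change -0.27, SE 0.11, adjusted p = 0.466). Gins3 was at 7.69 and 7.99 with GSK126, against 8.08 and 8.12 with DMSO (change -0.26, SE 0.12, adjusted p = 0.492). The change of Gins3 was -0.11 without GSK126 replicate 1, the array on which it was lowest. Gins4 differed least, at 8.83 and 8.86 with GSK126 and 9.03 and 9.02 with DMSO (change -0.18, SE 0.08, adjusted p = 0.500), and its replicates lay closest together.

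The 8 polymerase and primase genes had a median change of -0.29. In limma, 5 of them were lower at an unadjusted p under 0.05, where 9.15% of the genes not dim were. Pole2, the second subunit of leading-strand polymerase epsilon, showed the largest difference of the 31 genes. It was at 7.26 and 7.44 with GSK126, against 8.02 and 7.77 with DMSO, which is 1.45-fold lower (change -0.54, SE 0.12, unadjusted p = 0.00231 and adjusted p = 0.176 in limma). The catalytic subunit gene Pole was at 7.83 and 7.69 with GSK126 and 8.01 and 7.90 with DMSO (change -0.20, SE 0.10, adjusted p = 0.541, and -0.13 without GSK126 replicate 2). Both genes had both GSK126 values below both DMSO values, where 28.4% of the genes not dim did. The difference between the 2 changes was not tested.

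Prim1, the catalytic primase subunit that starts each primer, was at 8.70 and 8.93 with GSK126, against 9.20 and 9.26 with DMSO, which is 1.33-fold lower (change -0.41, SE 0.10, unadjusted p = 0.00403, adjusted p = 0.219 in limma). Its partner Prim2, the large primase subunit, was at 8.68 and 8.92 with GSK126 and at 9.24 and 8.89 with DMSO (change -0.27, SE 0.13, adjusted p = 0.542). The Prim2 groups overlapped, because DMSO replicate 2 lay just under GSK126 replicate 2. The change of Prim2 was -0.0955 without DMSO replicate 1 and -0.15 without GSK126 replicate 1. Pola2, the regulatory subunit of polymerase alpha, was at 8.65 and 8.75 with GSK126, against 9.03 and 8.97 with DMSO (change -0.30, SE 0.09, unadjusted p = 0.00873, adjusted p = 0.292 in limma). The catalytic subunit gene Pola1 was at 7.89 and 7.69 with GSK126 and at 7.80 and 7.92 with DMSO (change -0.06, SE 0.11, adjusted p = 0.897). Its 95% interval of -0.31 to 0.18 holds both no change and the change of Pola2, and without GSK126 replicate 2 its sign turned (0.034).

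Polymerase delta, which extends the lagging strand, was represented by 2 of the listed genes. Pold3, an accessory subunit that binds PCNA, was at 8.21 and 8.36 with GSK126, against 8.68 and 8.64 with DMSO, which is 1.29-fold lower (change -0.37, SE 0.09, unadjusted p = 0.00437, adjusted p = 0.228 in limma). The catalytic subunit gene Pold1 was at 7.16 and 7.26 with GSK126 and at 7.48 and 7.51 with DMSO (change -0.28, SE 0.10, unadjusted p = 0.0194, adjusted p = 0.370 in limma). Both genes were lower on each GSK126 array than on either DMSO array, as were 28.4% of the genes not dim. The remaining subunits of these polymerases were looked up after the values of the listed ones had been seen. Pold2 was at -0.37 (SE 0.13, adjusted p = 0.380), whereas the small subunit genes Pold4 (0.04, SE 0.09), Pole3 (-0.01, SE 0.09) and Pole4 (-0.04, SE 0.11) had groups that overlapped. None of these 4 passed the test in limma, in which 1 of them, Pold2, had an unadjusted p under 0.05.

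**Figure D2:**
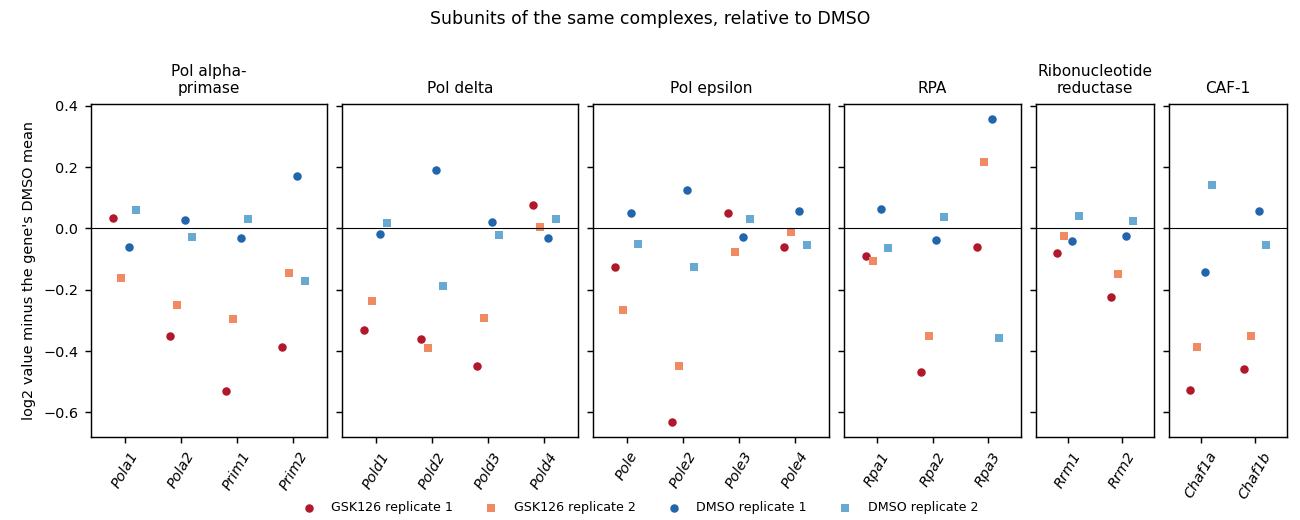
Log2 value of each plotted subunit minus its own mean over the DMSO arrays, for 6 complexes. Points are arrays (GSK126 red and orange, DMSO blue). The GSK126 points of Pole2, Prim1, Pold3, Rpa2, Chaf1a and Chaf1b lie clear of the DMSO points. Those of Pola1, Prim2, Pold4, Pole3, Pole4, Rpa3 and Rrm1 do not.

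Promoter sequences were available from RefSeq (GRCm38.p6) for 26 of the 33 genes, as 29 windows of 300 bases that run from 250 bases before the start site to 50 after it. An E2F site was searched for on both strands in the forms TTTCCCGC, TTTGGCGC, TTTGCCGC and TTTCGCGC, and a window was counted once whichever form it held. It occurred in 7 of 29 windows (24.1%), against 2.26% of all 32851 windows and 2.85% of those of protein-coding genes. The 7 belong to Pole2, Pold1, Pold3, Pola1, Gins3, Rfc3 and Lig1. CCAAT occurred in 41.4% of the 29 windows and in 37.4% of all, and the CHR letters TTTGAA or TTCGAA in 10.3% and 19.2%. The 7 genes with an E2F form had changes of -0.54 to -0.06 with a median of -0.26, and the 18 measured genes whose windows held none had changes of -0.46 to -0.05 with a median of -0.30. The ranges of the 2 sets overlapped, and a match describes letters, not binding. A window counted as holding none lacked these exact forms only. E2F sites in other forms or outside the windows were not searched for, so the 2 sets do not separate genes with and without E2F control. Whether the windows, that of E2f1 included, hold the start site used in these cells was not tested. Windows of 5 genes follow, chosen to show the polymerase gene with the largest difference (Pole2), another with the site in the other orientation (Pold3), the one with the smallest difference (Pola1), the only window with 2 matches (Rfc3) and a gene with a large difference and no match (Chaf1b). They lie at chr12:69228141-69228440, chr7:100121453-100121752, chrX:93632106-93632405 and chr5:151651159-151651458 on the minus strand and at chr16:93883651-93883950 on the plus strand, in the order of the lines below. Each is written 5′ to 3′ on the strand of its gene, with E2F forms in capitals.
Pole2: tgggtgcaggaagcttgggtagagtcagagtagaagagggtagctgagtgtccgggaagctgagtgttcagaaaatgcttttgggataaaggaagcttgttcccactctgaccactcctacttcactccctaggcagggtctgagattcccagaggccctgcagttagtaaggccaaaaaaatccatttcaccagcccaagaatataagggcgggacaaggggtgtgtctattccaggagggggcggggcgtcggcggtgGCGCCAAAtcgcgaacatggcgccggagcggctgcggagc
Pold3: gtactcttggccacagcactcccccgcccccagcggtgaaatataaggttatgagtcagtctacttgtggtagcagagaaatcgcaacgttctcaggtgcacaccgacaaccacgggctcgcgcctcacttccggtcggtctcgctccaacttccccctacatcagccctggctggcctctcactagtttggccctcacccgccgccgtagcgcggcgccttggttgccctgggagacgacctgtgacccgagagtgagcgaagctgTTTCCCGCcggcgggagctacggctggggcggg
Pola1: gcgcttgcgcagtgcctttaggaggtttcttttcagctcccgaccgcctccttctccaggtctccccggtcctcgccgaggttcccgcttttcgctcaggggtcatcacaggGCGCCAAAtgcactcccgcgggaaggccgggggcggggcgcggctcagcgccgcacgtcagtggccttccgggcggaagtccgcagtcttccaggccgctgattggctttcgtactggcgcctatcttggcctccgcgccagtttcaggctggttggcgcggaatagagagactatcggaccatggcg
Rfc3: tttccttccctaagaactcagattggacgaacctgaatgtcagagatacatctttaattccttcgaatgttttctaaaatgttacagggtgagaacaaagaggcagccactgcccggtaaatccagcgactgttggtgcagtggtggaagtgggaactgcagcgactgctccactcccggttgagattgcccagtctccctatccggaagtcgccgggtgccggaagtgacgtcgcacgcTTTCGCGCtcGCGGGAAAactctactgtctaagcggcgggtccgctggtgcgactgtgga
Chaf1b: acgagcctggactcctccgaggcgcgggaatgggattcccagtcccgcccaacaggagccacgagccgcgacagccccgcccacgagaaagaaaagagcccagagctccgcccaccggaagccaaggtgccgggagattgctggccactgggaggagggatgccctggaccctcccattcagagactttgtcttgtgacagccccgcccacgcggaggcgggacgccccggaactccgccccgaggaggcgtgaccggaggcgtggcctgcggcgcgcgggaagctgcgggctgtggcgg

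The sliding clamp and its loader had a median change of -0.18 over 5 measured genes, which was -0.11 without GSK126 replicate 2. Pcna, whose ring tethers the polymerases to DNA, was at 10.64 and 10.51 with GSK126, against 10.74 and 10.77 with DMSO (change -0.18, SE 0.08, adjusted p = 0.509). The groups were separate, the 95% interval of the change was -0.38 to 0.02, and the change was -0.11 without GSK126 replicate 2. Rfc5, a small subunit of the loader, had the largest change of the subgroup, at 7.84 and 7.68 with GSK126, against 8.13 and 8.06 with DMSO, which is 1.26-fold lower (change -0.34, SE 0.10, unadjusted p = 0.00975, adjusted p = 0.299 in limma). Rfc3, another small subunit, was at 7.12 and 6.97 with GSK126 and at 7.19 and 7.26 with DMSO (change -0.18, SE 0.10, adjusted p = 0.604, and -0.10 without GSK126 replicate 2).

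Rfc1, the large loader subunit, overlapped between groups, at 8.41 and 8.32 with GSK126 and 8.40 and 8.56 with DMSO (change -0.12, SE 0.10, adjusted p = 0.732, and -0.033 without DMSO replicate 2). Rfc2 had a change of -0.25 (SE 0.16, adjusted p = 0.624) that rested on GSK126 replicate 1. It was at 7.03 and 7.50 with GSK126, against 7.44 and 7.59 with DMSO, and its change without that array was -0.02. Of the 5 genes, only Rfc5 had an unadjusted p under 0.05 in limma.

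Of replication protein A, the single-strand binding complex, 2 subunit genes were listed (median change -0.25), and the difference between their changes was not tested. Rpa2, the middle subunit, was at 6.69 and 6.81 with GSK126, against 7.12 and 7.20 with DMSO, which is 1.33-fold lower (change -0.41, SE 0.10, unadjusted p = 0.00484, adjusted p = 0.237 in limma). Rpa1, the large DNA-binding subunit, was at 8.63 and 8.62 with GSK126 and 8.79 and 8.66 with DMSO (change -0.10, SE 0.09, adjusted p = 0.758). Its groups were separate by a narrow gap. The change of Rpa1 was -0.035 without DMSO replicate 1 and -0.22 with its 2 probe sets averaged. The remaining subunit gene Rpa3, looked up after the others had been seen, spread too widely to place, at 8.65 and 8.93 with GSK126 and 9.06 and 8.35 with DMSO.

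The genes for joining lagging-strand fragments showed small differences. Fen1, the flap endonuclease, was at 7.71 and 7.26 with GSK126 and at 7.60 and 7.81 with DMSO (change -0.22, SE 0.16, adjusted p = 0.681). Without GSK126 replicate 2 its change was 0.0084, so the lower mean came from that array, and with its 2 probe sets averaged it was -0.08. Lig1, the replicative ligase, was at 7.89 and 7.82 with GSK126, against 7.92 and 8.11 with DMSO (change -0.16, SE 0.10, adjusted p = 0.642, and -0.06 without DMSO replicate 2). The median of the pair, -0.19, was -0.09 without DMSO replicate 2, -0.06 without GSK126 replicate 2 and -0.32 without GSK126 replicate 1.

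Among nucleotide synthesis genes, the median change was -0.29 over 5 genes (-0.17 without DMSO replicate 1). Tyms, which makes thymidylate, was at 8.11 and 8.18 with GSK126, against 8.70 and 8.31 with DMSO, which is 1.29-fold lower (change -0.36, SE 0.13, unadjusted p = 0.0266, adjusted p = 0.403 in limma). Without DMSO replicate 1 its change was -0.17. Tk1, the thymidine salvage kinase of S-phase cells, was at 8.96 and 9.09 with GSK126, against 9.40 and 9.25 with DMSO (change -0.30, SE 0.09, unadjusted p = 0.0152, adjusted p = 0.344 in limma). Dut, which clears dUTP and supplies the substrate of thymidylate synthase, was at 7.43 and 7.35 with GSK126, against 7.80 and 7.56 with DMSO (change -0.29, SE 0.11, unadjusted p = 0.0331, adjusted p = 0.428 in limma). Without DMSO replicate 1 the change of Dut was also -0.17. All 3 thymidine-pathway genes had both GSK126 values below both DMSO values, where 28.4% of the genes not dim did.

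The ribonucleotide reductase genes, whose enzyme makes all 4 deoxynucleotide precursors, had smaller changes. Rrm2, the regulatory subunit gene that is induced in S phase, was at 8.64 and 8.71 with GSK126, against 8.84 and 8.89 with DMSO (change -0.19, SE 0.08, adjusted p = 0.498, and -0.06 with its 2 probe sets averaged). Rrm1, the catalytic subunit gene, was at 10.35 and 10.41 with GSK126 and at 10.39 and 10.47 with DMSO (change -0.05, SE 0.08, adjusted p = 0.884). The Rrm1 groups overlapped, with the smallest change of the 31 genes, a 95% interval of -0.24 to 0.14, and changes of -0.094 to -0.014 with 1 array left out.

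The chromatin assembly genes, with the histone mRNA binding protein gene Slbp, had the lowest median of the 8 subgroups (-0.40 over 3 genes). Each of the 3 was lower at an unadjusted p under 0.05 in limma, where 9.15% of the genes not dim were. Chaf1a, the large CAF-1 subunit that binds PCNA, was at 7.22 and 7.36 with GSK126, against 7.61 and 7.89 with DMSO, which is 1.37-fold lower (change -0.46, SE 0.12, unadjusted p = 0.00618, adjusted p = 0.259 in limma). Chaf1b, the middle CAF-1 subunit, was at 8.83 and 8.93 with GSK126, against 9.34 and 9.23 with DMSO, which is 1.32-fold lower (change -0.40, SE 0.09, unadjusted p = 0.00217, adjusted p = 0.172 in limma). Slbp, which binds the stem-loop of replication-dependent histone mRNAs, was at 7.97 and 7.94 with GSK126, against 8.29 and 8.32 with DMSO, which is 1.28-fold lower (change -0.35, SE 0.09, unadjusted p = 0.00389, adjusted p = 0.217 in limma). The changes of all 3 stayed between -0.60 and -0.32 when any 1 array was left out. Without DMSO replicate 2 the subgroup median was -0.34 and no longer the lowest, beside -0.37 for nucleotide synthesis and -0.36 for polymerase and primase. The subgroups hold 2 to 8 genes that share the same 4 arrays, so their medians are set side by side without a test.

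The 2 measured regulators of S-phase entry also had lower means, with a median change of -0.23. Ccne1, cyclin E1, which activates CDK2 at the G1/S transition, was at 6.96 and 7.01 with GSK126, against 7.41 and 7.22 with DMSO, which is 1.26-fold lower (change -0.33, SE 0.11, unadjusted p = 0.0159, adjusted p = 0.349 in limma). E2f1, the activator that drives many genes of the list, was at 7.55 and 7.41 with GSK126 and at 7.60 and 7.62 with DMSO (change -0.13, SE 0.10, adjusted p = 0.691). The groups were separate for both, as they were in this direction for 28.4% of the genes not dim. For E2f1, GSK126 replicate 1 lay close to the DMSO arrays (change -0.065 without GSK126 replicate 2).

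With 1 of the 4 arrays left out, the change of 16 of the 31 genes moved by more than 1.5 times in at least 1 case, and the change of the other 15 did not. Of the 16 genes lower at an unadjusted p under 0.05, 13 stayed within that range, and Gins2, Tyms and Dut did not.

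**Figure D3:**
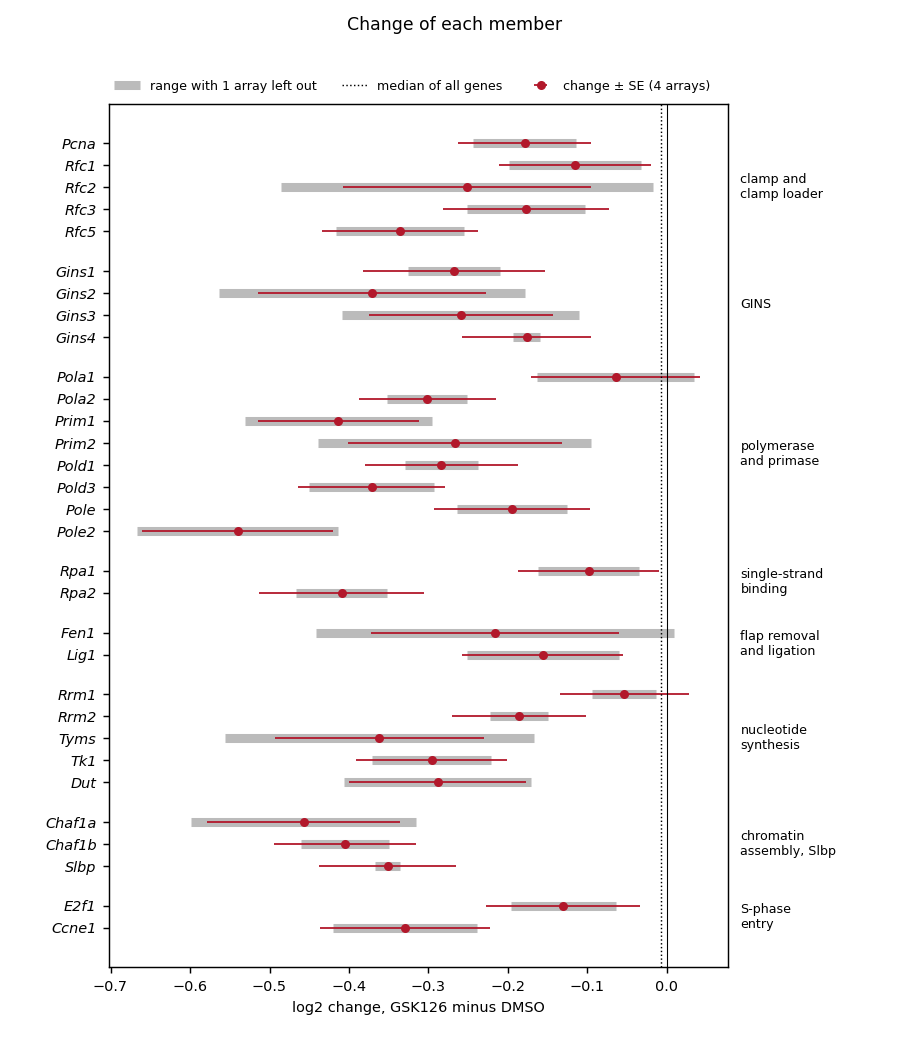
Log2 change, GSK126 minus DMSO, of the 31 genes with its SE, and as a grey bar the range of the change when 1 of the 4 arrays is left out. All points lie left of 0, from -0.54 for Pole2 to -0.05 for Rrm1, and the grey bars of Pola1 and Fen1 reach past 0.

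Genes that work beside the listed ones were read from 7 further lists. For comparison, 58.8% of the genes not dim had a lower mean and 9.15% were lower at an unadjusted p under 0.05 in limma. Among 17 MCM and origin licensing genes the median change was -0.27, 16 had a lower mean and 10 were lower at an unadjusted p under 0.05 (0 higher). Cdc6, which loads the MCM helicase onto origins, fell to 7.62 and 7.61 with GSK126, against 8.29 and 8.19 with DMSO (change -0.62, SE 0.09, adjusted p = 0.0455). It was the only gene of these 7 lists past the threshold, and its adjusted p was 0.210 to 0.473 with 1 array left out. Mcm7 (-0.44, adjusted p = 0.180) and Mcm5 (-0.34, adjusted p = 0.208) had the next smallest p in that list. The other chromatin assembly genes, 11 in number, had a median of -0.28. All 11 had a lower mean, and 6 were lower at an unadjusted p under 0.05 (0 higher). Examples are the maintenance methylation factor gene Uhrf1 (-0.38, adjusted p = 0.176), the histone chaperone gene Asf1b (-0.50, adjusted p = 0.225) and Mms22l (-0.35, adjusted p = 0.241), which acts at stalled forks.

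The 22 other fork genes had a median of -0.20. Of these, 19 had a lower mean and 9 were lower at an unadjusted p under 0.05 (0 higher). Dna2, a nuclease and helicase that trims flaps, was at 5.99 and 5.91 with GSK126, against 6.84 and 6.47 with DMSO (change -0.70, SE 0.15, adjusted p = 0.146). Cdc45, the helicase partner of GINS, was at -0.31 (SE 0.09, adjusted p = 0.299), and Atad5, which unloads PCNA, was at -0.42 (SE 0.12, adjusted p = 0.304). Of the 13 other nucleotide genes (median -0.13), 11 had a lower mean, and 4 were lower at an unadjusted p under 0.05 and 0 higher. The deoxycytidine kinase gene Dck (-0.36, adjusted p = 0.206), the nucleotide pool hydrolase gene Dctpp1 (-0.38, adjusted p = 0.267) and the dCMP deaminase gene Dctd (-0.37, adjusted p = 0.318) led them.

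The 18 other E2F family members and S-phase regulators had a median of -0.20. Of these, 16 had a lower mean and 6 were lower at an unadjusted p under 0.05 (0 higher). The ubiquitin ligase gene Skp2 (-0.38, adjusted p = 0.201), the kinase partner of cyclin E, Cdk2 (-0.38, adjusted p = 0.208), and the APC/C inhibitor gene Fbxo5 (-0.37, adjusted p = 0.212) had the smallest p. The D cyclins and CDK inhibitors had means on both sides of DMSO, with a median of -0.01 over 12 genes, 2 lower and 2 higher at an unadjusted p under 0.05. Of the CDK inhibitor genes, Cdkn2d (-0.45, adjusted p = 0.140) and Cdkn1b (-0.36, adjusted p = 0.314) had lower means and Cdkn1a (0.28, adjusted p = 0.415) had a higher one, as had the cyclin gene Ccnd1 (0.24, adjusted p = 0.368). The 28 mitosis genes had a median of -0.08, with 2 lower at an unadjusted p under 0.05 and 0 higher, a share near the 5.93% of all genes. These 2 were Aurkb (-0.25, adjusted p = 0.348), the kinase of the chromosomal passenger complex, and the condensin gene Ncapd2 (-0.30, adjusted p = 0.410). Both GSK126 arrays lay below both DMSO arrays for 25 of the 31 replication and S-phase genes and 11 of the 28 mitosis genes, beside 21.8% of all genes and 28.4% of those not dim, and the difference between the lists was not tested.

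**Figure D4:**
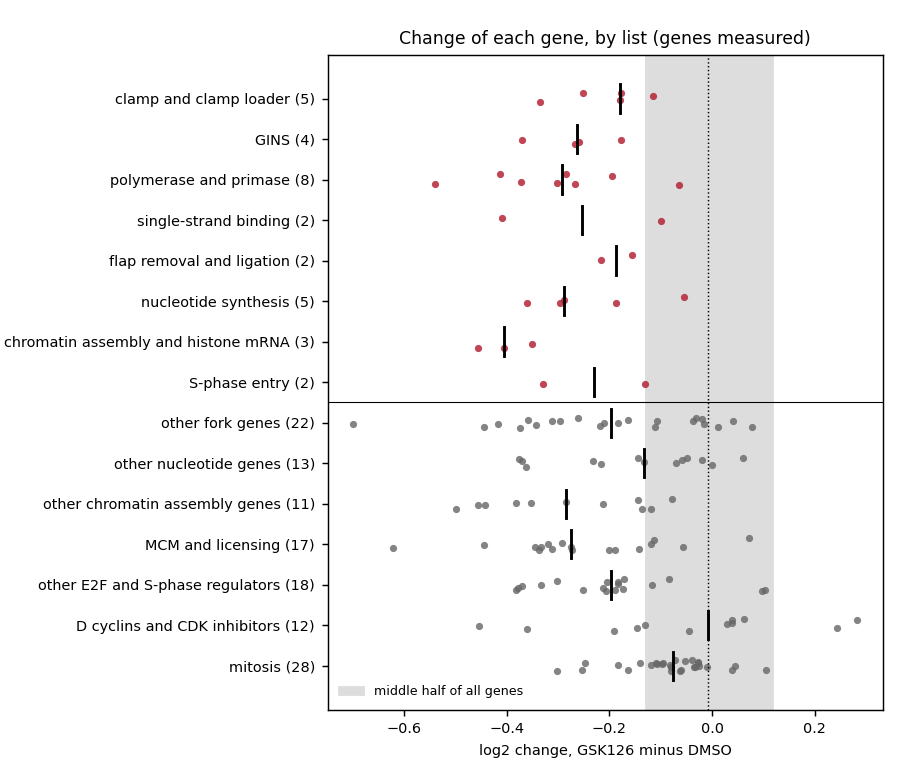
Log2 change, GSK126 minus DMSO, of each measured gene, with the 8 subgroups in red above the line and 7 neighbouring lists in grey below it. Black bars are medians, the dotted line is the median of all genes and the grey band is the middle 50% of all genes, which holds the medians of the mitosis list and of the D cyclins and CDK inhibitors but of none of the 8 subgroups.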

How the data were processed

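Total RNA from 4 samples was hybridised to single-channel Affymetrix mouse arrays. The deposited values are log2 expression, computed by RMA (robust multi-array averaging) with a core-exon setting of Expression Console, per the labels. Affymetrix Power Tools is named in the submitters' processing notes without a version, and no build is named there. Values ran from 0.63 to 13.6, and array medians were 4.79 and 4.78 for GSK126 and 4.74 and 4.73 for DMSO. Precision is limited by having 2 arrays per group, and the centring was left as deposited.

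Of 41345 probe sets, the platform annotation gave 1 symbol for 23521, several for 1814 and none for 16010. Symbols were compared with RefSeq through Entrez identifiers (23328 matched, 0 updated). Each of 22180 genes was represented by its probe set with the highest mean. This choice mattered for 5 listed genes (Pole, Rpa1, Fen1, Rrm2 and Dut). Pseudogenes of Pcna and Tyms are annotated, and cross-hybridisation cannot be separated on arrays.

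Groups and replicate numbers came from the sample titles. GSK126 minus DMSO was fitted with limma 3.58.1 in R 4.3.3 with an intensity trend, 2 residual and 5.57 prior degrees of freedom, two-sided moderated tests, and p-values adjusted by Benjamini-Hochberg across the whole gene table (threshold 0.05). The script was tested on simulated data with known changes larger than those of the listed genes, which does not show how often it finds small ones. Same-numbered arrays did not deviate together (correlation of deviations -0.03 over all genes). Pairs of arrays shared 142 to 181 identical values, so no array was a copy.

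The genes, subgroups and lists were chosen with earlier results of these data known. All listed genes are named, as are up to 3 genes with the smallest p in each neighbouring list and any past the threshold. Beyond this rule, the D cyclins and CDK inhibitors with an unadjusted p under 0.05 are named. So are the remaining subunit genes of polymerases delta and epsilon and of replication protein A. Alternatives were a robust prior, a prior with no trend, a filter on dim genes, averaging probe sets, testing probe sets singly, centring, quantile normalization, the replicate block and leaving out each array.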

Additional observations from a re-analysis of the deposited data

How the results depend on the processing

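The 31 genes gave 0 calls in limma under all 12 alternatives, with 7 to 22 lower at an unadjusted p under 0.05, and all 31 kept a lower mean except without GSK126 replicate 2, where Pola1 (0.034) and Fen1 (0.0084) turned. With 1 array left out Pola1 ran from -0.16 to 0.034 and Fen1 from -0.44 to 0.0084. Of 372 values of single genes under alternatives, the other 370 kept their direction and stayed short of the threshold. The count over all genes, 96, was 0 without the intensity trend (1964 at an unadjusted p under 0.05 in limma), 149 without dim genes, 10 with the replicate block and 0 to 4 with 1 array left out (4 without DMSO replicate 1, 2 without DMSO replicate 2 and 0 without either GSK126 array). The block changed no call among the 31 genes and left 14 of them lower at an unadjusted p under 0.05. Centring each array moved the median of the 31 genes to -0.32, of the chromatin assembly subgroup to -0.46, of S-phase entry to -0.28 and of single-strand binding to -0.31, while the median of all genes became -0.06, against -0.01 as deposited. With averaged probe sets, flap removal and ligation was at -0.12, against -0.19 with the stronger probe sets, and single-strand binding was at -0.31. After quantile normalization single-strand binding was at -0.22. With 1 array left out, the median of the 31 genes ran from -0.33 to -0.22, of GINS from -0.37 to -0.18, of polymerase and primase from -0.37 to -0.26, of nucleotide synthesis from -0.37 to -0.17, of chromatin assembly from -0.46 to -0.34, and the count at an unadjusted p under 0.05 from 7 to 15. An arm with 1 array left is assumed to vary like the other. Cdc6 passed with a robust prior (adjusted p = 0.0393), without dim genes (0.0220), with averaged probe sets (0.0450) and with centred arrays (0.0283), and not without the trend (0.271), with probe sets tested singly (0.0582), after quantile normalization (0.0507) or with the replicate block (0.158). The cause of these shifts was not tested.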
